A study of Mus musculus with 6 samples.

Results

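The genes described here encode 3 families of guidance cues and their receptors: the ephrins with the Eph receptors, the Slits with the Robo receptors, and the netrins with the Unc5, Dcc and neogenin receptors. They were chosen by gene symbol, and all 39 symbols were found among the 22173 genes listed. Of the 39 genes, 15 encode ligands and 24 encode receptors. Ephrins are held on the cell surface, the A class by a lipid anchor and the B class by a transmembrane segment, and they signal when they meet an Eph receptor kinase on a neighbouring cell. Slits and netrins are secreted. Slits act through Robo receptors mostly as repellents, and netrins attract growth cones through Dcc and repel them through Unc5 receptors. In the retina these cues steer ganglion cell axons to and through the optic nerve, and some of the same molecules pattern blood vessels, such as ephrin-B2 on arteries, EphB4 on veins and Robo4 and Unc5b on endothelial cells.

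RNA of whole retina was sequenced at postnatal day 17 in 6 libraries of wild-type C57BL/6J pups. In the oxygen-induced retinopathy (OIR) group, 3 libraries came from pups kept in 75% oxygen over postnatal days 7 to 12 and in room air afterwards, a model in which lost retinal vessels leave a hypoxic retina that then grows abnormal vessels. In the Control group, 3 libraries came from pups kept in room air over postnatal days 7 to 17. The study asked which genes change with pathological vessel growth. Nothing in the labels ties a library to its own pup or to a pool, so the p-values below rest on the spread between libraries, which may be technical.

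Values are RPKM, reads scaled by gene length and by library size, so levels can be compared between genes per unit length. The libraries held 35615501 to 38025623 reads, as recovered from the values. Photoreceptor markers, 8 genes, summed to 7892 to 8334 RPKM in OIR and 6609 to 8133 RPKM in Control, as a retina sample holds. Eye lens genes made up 0.551% of OIR 2 and 6.29% of Control 3 by reads, and 0.0147% to 0.0577% of the other libraries. OIR 2 and Control 3 are called lens-rich below. Lens reads count in the library size, so they lower the RPKM of other genes, most in Control 3. Outside the cell types taken up below, markers were higher in OIR for astrocytes (2 of 4 tested), microglia (4 of 6) and red blood cells (4 of 4, summing to 84.2 to 158.0 RPKM in OIR and 47.3 to 55.8 RPKM in Control), and lower for Müller glia (6 of 7, with 1 higher), bipolar cells (3 of 8) and horizontal cells (2 of 4), while 3 of the 8 photoreceptor markers were higher and 1 lower; their part in the results was not tested.

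Most guidance genes tested showed no difference between OIR and Control retina past an adjusted p of 0.05, which does not show equal levels. The differences that passed ran in both directions. The netrin receptor gene Unc5b, the Slit receptor family gene Robo4, the ephrin ligand gene Efna1 and the ephrin receptor gene Ephb4 were higher in OIR, by 1.93-fold for Ephb4 up to 3.14-fold for Robo4 as ratios of mean RPKM. The ephrin ligand gene Efna5 and the receptor genes Epha3 and Ephb1 were lower, with ratios from 0.682 for Epha3 to 0.758 for Efna5. Of the 39 genes, 31 had at least 1 RPKM in at least 3 libraries and were tested with limma on log2(RPKM + 1). The other 8 were too low for the test. Of the 31, 4 were higher, 3 were lower and 24 did not pass an adjusted p of 0.05, so 22.6% were called, where 18.8% of all 12112 genes tested were called. Higher calls made up 12.9% of the tested guidance genes, against 11.6% of all genes tested, and lower calls 9.68%, against 7.22%. In this fit, the share of calls was thus close to that of genes at large. At an unadjusted p under 0.05, 13 of the 31 passed, and 4122 of all 12112. Ligands gave 1 higher and 1 lower call among 10 tested, and receptors 3 higher and 2 lower among 21. The median log2 fold change was -0.00059 over the tested guidance genes and 0.03 over all genes tested (as log2(RPKM + 1), OIR minus Control).

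**Figure D1:**
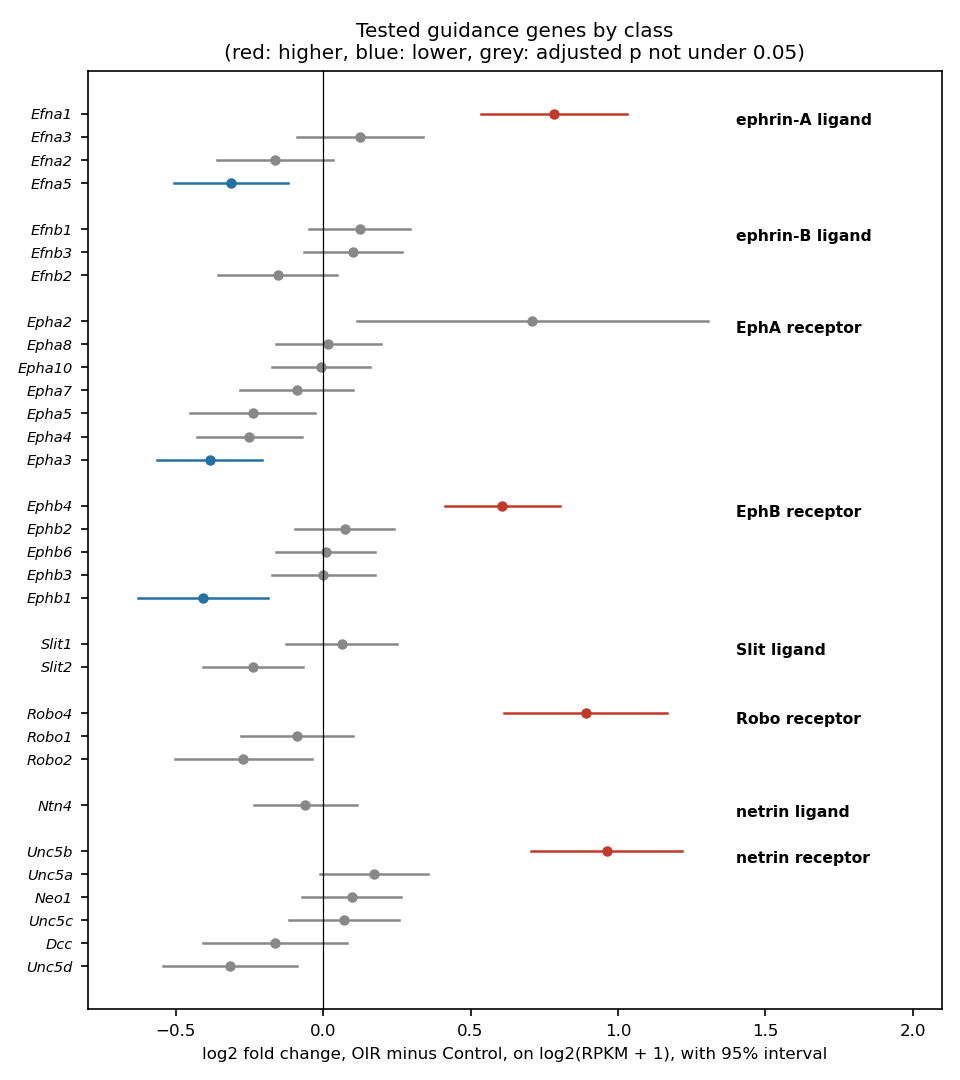
Log2 fold change (OIR minus Control, on log2(RPKM + 1)) of the 31 tested guidance genes, ordered by class, with 95% intervals from limma. Red points mark the 4 genes called higher, blue points the 3 called lower and grey points the 24 that did not pass; the widest interval is that of Epha2, from 0.11 to 1.30.

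The 4 higher calls held when any single library was left out. All 7 calls held when both lens-rich libraries were left out. Of these, OIR 2 was the OIR library nearest the Control mean for all 7 genes, so leaving it out favours the calls. The lower calls were less stable: median-of-ratios scaling gave 4 higher and 6 lower genes, with Epha4, Slit2 and Unc5d added to the lower ones, where 10.6% of all genes were higher and 10.8% lower. The number of lower genes was 0 without Control 1, 1 without OIR 1, 1 without OIR 3, 2 without Control 2, 6 without Control 3 and 8 without OIR 2. Lower calls over all genes moved the same way, at 265, 212, 348, 421, 1070 and 1293 in the same order of fits, against 875 with all libraries. With a filter of 0.1 RPKM the same 7 genes were called, where 10.4% of all genes were higher and 5.69% lower. In the fit with no filter, which holds all 39 genes, the same 4 genes were higher and Epha3 alone was lower, where 6.73% of 17953 genes were higher and 2.95% lower.

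For the called genes furthest from 0 on log2(RPKM + 1) in each direction, Unc5b and Robo4 among those higher and Ephb1 and Epha3 among those lower, the annotated promoter windows are shown, from RefSeq on GRCm38.p6, 250 bases before the start of the gene to 50 after it. RefSeq windows were matched for 34 of the 39 genes, 39 windows in all because some genes have more than 1 start; Efnb3, Slit1, Ntn1, Unc5d and Dcc had none. Each window was searched on both strands for ACGTG and GCGTG, the letters at the core of sites of hypoxia-inducible factors. It was also searched for CGGAAG, only 1 of the forms that sites of ETS factors take, which act in endothelial cells. Matches are in capitals, and positions count from the start of the gene.
Unc5b, chr10:60831532-60831831, minus strand: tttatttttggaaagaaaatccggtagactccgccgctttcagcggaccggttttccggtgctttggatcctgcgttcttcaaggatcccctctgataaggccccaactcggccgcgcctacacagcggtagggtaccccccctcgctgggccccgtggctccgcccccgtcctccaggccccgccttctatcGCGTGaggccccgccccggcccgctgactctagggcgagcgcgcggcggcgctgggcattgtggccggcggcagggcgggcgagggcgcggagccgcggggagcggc
Robo4, chr9:37401722-37402021, plus strand: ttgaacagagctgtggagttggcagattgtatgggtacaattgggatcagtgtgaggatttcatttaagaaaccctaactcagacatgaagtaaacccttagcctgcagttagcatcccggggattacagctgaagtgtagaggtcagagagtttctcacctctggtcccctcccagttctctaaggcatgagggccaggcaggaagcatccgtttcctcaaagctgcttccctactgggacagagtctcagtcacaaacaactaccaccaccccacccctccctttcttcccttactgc
Ephb1, chr9:102354644-102354943, minus strand: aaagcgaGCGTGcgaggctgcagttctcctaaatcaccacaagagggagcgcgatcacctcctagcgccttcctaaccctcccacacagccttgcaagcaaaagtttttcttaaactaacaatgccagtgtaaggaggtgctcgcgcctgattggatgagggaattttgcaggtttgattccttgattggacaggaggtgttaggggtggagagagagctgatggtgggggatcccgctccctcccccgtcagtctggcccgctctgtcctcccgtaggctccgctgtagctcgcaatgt
Epha3, chr16:63864126-63864425, minus strand: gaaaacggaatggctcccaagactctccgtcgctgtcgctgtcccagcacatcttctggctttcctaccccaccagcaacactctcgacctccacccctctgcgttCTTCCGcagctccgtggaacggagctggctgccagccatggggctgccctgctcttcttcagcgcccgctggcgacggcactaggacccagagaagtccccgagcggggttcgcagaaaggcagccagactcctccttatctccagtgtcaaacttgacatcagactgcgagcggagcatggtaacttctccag
The Unc5b and Ephb1 windows each hold 1 GCGTG, beginning at position -57 in Unc5b and -243 in Ephb1. The Epha3 window holds 1 CGGAAG, read on the other strand and beginning at position -144. The Robo4 window holds no match to the strings searched. Other forms of ETS sites were not searched for, so their absence from it is not shown. ACGTG occurs in 19.6% of all 32851 promoter windows and in 5 of the 39 guidance gene windows, those of Epha4, Epha8, Ephb3, Ephb6 and Robo2. GCGTG occurs in 32.4% of all windows and in 15 of the 39 windows, among them those of 4 of the 7 called genes, Efna1, Efna5, Ephb1 and Unc5b. CGGAAG occurs in 16.9% of all windows and in 4 of the 39 windows, Efna1 and Epha3 being the called genes among them. A match describes these letters in this window and says nothing of binding.

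Among the ephrin-A ligands, Efna1 rose, Efna5 fell and the other tested genes did not pass. Efna1, which encodes a ligand of EphA2 made by endothelial and other cells, was at 5.47, 4.31 and 5.38 RPKM in OIR 1 to 3, against 2.42, 2.13 and 3.01 RPKM in Control 1 to 3. The lowest OIR library thus lay above the highest Control library. Its mean was 5.05 ± 0.647 RPKM in OIR and 2.52 ± 0.446 RPKM in Control (SD, n = 3 each), a ratio of 2.003, with a log2 fold change of 0.78 (SE 0.112, limma adjusted p 0.00187).

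Efna5, whose product repels retinal axons in the visual centres of the mouse brain, was at 2.93, 3.43 and 2.99 RPKM in OIR 1 to 3, against 4.38, 4.22 and 3.74 RPKM in Control 1 to 3. The groups did not overlap, and OIR 2 was the OIR library nearest the Controls. The log2 fold change was -0.31 (SE 0.0872, limma adjusted p 0.0313). This call ended without OIR 1, OIR 3, Control 1 or Control 2, at limma adjusted p from 0.0941 to 0.128, and its log2 fold change stayed between -0.42 and -0.27 under all alternatives.

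Efna2 and Efna3, further ephrin-A ligands, did not pass. Efna2 averaged 2.85 ± 0.327 RPKM in OIR and 3.30 ± 0.190 RPKM in Control, with a 95% interval of the log2 fold change from -0.36 to 0.03. Efna3 averaged 3.02 ± 0.197 RPKM in OIR and 2.70 ± 0.416 RPKM in Control, with an interval from -0.09 to 0.34. Efna4 was too low to test, at 0.288 to 0.709 RPKM in OIR and 0.185 to 0.317 RPKM in Control. Efna1, Efna3 and Efna4 lie next to each other on mouse chromosome 3, with 0 protein-coding genes between Efna1 and Efna3 and 0 between Efna3 and Efna4, and of these 3 neighbours Efna1 was called, Efna3 was not and Efna4 was not tested.

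The summed level of the 5 ephrin-A genes was 14.1 to 14.7 RPKM in OIR and 12.5 to 13.4 RPKM in Control, higher in every OIR library, a difference that was not tested. Efna1 held 30.5% to 37.2% of it in OIR, against 17.1% to 23.5% in Control. Efna5 held 19.9% to 24.3% in OIR, against 29.3% to 33.8% in Control. The largest share of the class by mean was that of Efna1 in OIR, 34.8%, and that of Efna5 in Control, 31.9%.

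None of the 3 ephrin-B ligand genes, which encode the transmembrane ephrins, passed the test. Efnb2, the arterial endothelial ephrin that is also made by retinal neurons, was at 3.45, 2.79 and 3.40 RPKM in OIR 1 to 3, against 3.83, 3.83 and 3.38 RPKM in Control 1 to 3. The groups overlapped, with a log2 fold change of -0.15 and an interval from -0.36 to 0.05 (limma adjusted p 0.263). Efnb1 averaged 7.37 ± 0.127 RPKM in OIR and 6.70 ± 0.566 RPKM in Control. Efnb3 averaged 7.00 ± 0.242 RPKM in OIR and 6.46 ± 0.394 RPKM in Control. Both intervals held 0, from -0.05 to 0.30 for Efnb1 and from -0.06 to 0.27 for Efnb3.

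Among the 9 EphA receptor genes, Epha3 fell, and no other tested gene passed. Epha3, a receptor of ephrin-A ligands that guides axons and moves cells, was at 1.93, 1.95 and 1.87 RPKM in OIR 1 to 3, against 3.00, 2.78 and 2.65 RPKM in Control 1 to 3. The OIR libraries lay close together, with an SD of 0.0437 RPKM, and all below the Controls. The log2 fold change was -0.39 (SE 0.0806, limma adjusted p 0.0104). It was the only lower call kept in 15 of 16 alternatives, and it ended without Control 1, at an adjusted p of 0.0512.

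Epha4, which binds ephrins of both classes, averaged 6.56 ± 0.375 RPKM in OIR and 7.997 ± 0.643 RPKM in Control, with groups that did not overlap. Its limma adjusted p was 0.0517 as deposited and 0.0266 with median-of-ratios scaling. Epha5, graded across the ganglion cell layer of the mouse, averaged 2.25 ± 0.289 RPKM in OIR and 2.83 ± 0.293 RPKM in Control (log2 fold change -0.24, limma adjusted p 0.106), again without overlap. Epha7, Epha8 and Epha10 did not pass, with intervals that held 0. Epha7 averaged 3.43 ± 0.160 RPKM in OIR and 3.73 ± 0.383 RPKM in Control. Epha8, the EphA gene with the highest level, averaged 11.7 ± 0.505 RPKM in OIR and 11.6 ± 1.13 RPKM in Control. Epha10, whose protein lacks kinase activity, averaged 5.91 ± 0.267 RPKM in OIR and 5.94 ± 0.288 RPKM in Control. The 95% intervals were -0.28 to 0.10 for Epha7, -0.16 to 0.20 for Epha8 and -0.17 to 0.16 for Epha10.

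Epha2, the receptor of ephrin-A1 on endothelial and epithelial cells and a gene of the lens, had the widest interval of the tested guidance genes. It was at 2.52, 1.89 and 3.66 RPKM in OIR 1 to 3, against 0.911, 0.895 and 1.998 RPKM in Control 1 to 3. The groups overlapped through Control 3, the library with 6.29% lens reads, and the log2 fold change of 0.71 (SE 0.245) had a limma adjusted p of 0.0972. Without Control 3 the log2 fold change was 0.93 with an adjusted p of 0.0233, and without both lens-rich libraries it was 1.09 with an adjusted p of 0.000747. The replicate number as a block also brought it past the threshold, at a limma adjusted p of 0.00158, though whether the numbers pair the libraries is not known. Among the Controls, lens genes and Epha2 were both highest in Control 3. In the OIR group, the lens-rich OIR 2 had the lowest Epha2 value, and OIR 3, with 0.0147% lens reads, had the highest. Leaving out both lens-rich libraries thus removed the highest Control value and the lowest OIR value. The part of lens tissue in the Epha2 levels was not tested.

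Among the 5 EphB receptor genes, Ephb4 rose, Ephb1 fell and 3 did not pass. Ephb4, the receptor of ephrin-B2 that marks venous endothelium, was at 2.61, 2.27 and 2.62 RPKM in OIR 1 to 3, against 1.35, 1.16 and 1.38 RPKM in Control 1 to 3. All OIR libraries lay above all Controls, with a ratio of 1.93 and a log2 fold change of 0.61 (SE 0.0884, limma adjusted p 0.00204). On reads recovered from the values, with limma-voom, the log2 fold change was 0.95.

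Ephb1, which in the mouse directs ganglion cell axons of the ventrotemporal retina to the same side of the brain, was at 5.79, 6.73 and 5.78 RPKM in OIR 1 to 3, against 9.84, 7.93 and 7.58 RPKM in Control 1 to 3. No library crossed into the other group, and Control 1 was the highest. The log2 fold change was -0.41 (SE 0.1003, limma adjusted p 0.0199). The call ended without OIR 1, OIR 3 or Control 1, at adjusted p of 0.0876, 0.0659 and 0.0784, and without Control 1 the log2 fold change was -0.30.

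Ephb2, Ephb3 and Ephb6, the last of them without kinase activity, did not pass. Ephb2 averaged 5.82 ± 0.238 RPKM in OIR and 5.49 ± 0.348 RPKM in Control. Ephb3 averaged 3.66 ± 0.192 RPKM in OIR and 3.66 ± 0.203 RPKM in Control. Ephb6 averaged 4.88 ± 0.284 RPKM in OIR and 4.84 ± 0.181 RPKM in Control. The intervals of the log2 fold change were -0.10 to 0.24 for Ephb2, -0.18 to 0.17 for Ephb3 and -0.16 to 0.18 for Ephb6. Within the EphB sum, 22.1 to 24.1 RPKM in OIR and 22.2 to 25.7 RPKM in Control, Ephb1 held 25.5% to 27.9% in OIR and 34.1% to 38.2% in Control, and Ephb4 held 9.41% to 11.8% in OIR and 4.97% to 6.23% in Control.

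**Figure D2:**
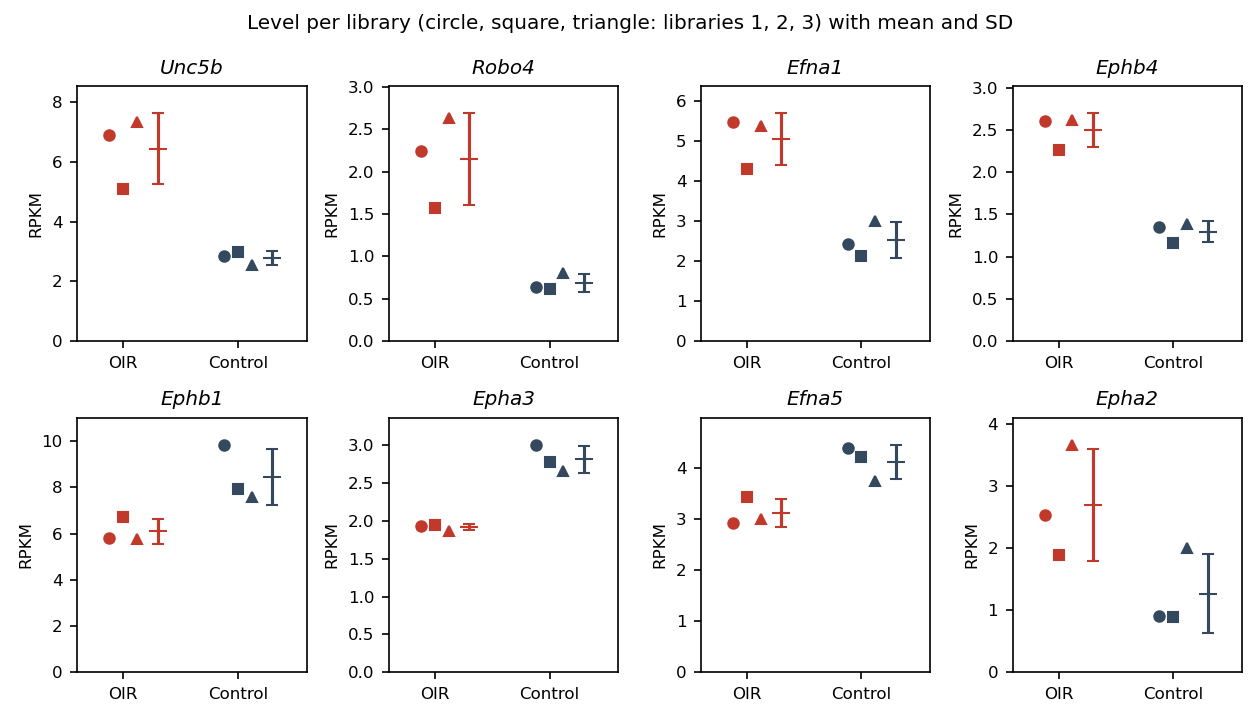
RPKM per library of the 7 called guidance genes and of Epha2, with OIR in red and Control in dark blue; bars give the mean and SD of 3 libraries. Unc5b, Robo4, Efna1 and Ephb4 had every OIR library above every Control library, Ephb1, Epha3 and Efna5 had every OIR library below, and Epha2 overlapped through Control 3 at 1.998 RPKM.

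The Slit ligands were led by Slit2, which repels ganglion cell axons and, through Robo1 and Robo2, promotes vessel growth in the mouse retina. Slit2 was at 11.7, 12.8 and 11.9 RPKM in OIR 1 to 3, against 15.5, 14.8 and 13.2 RPKM in Control 1 to 3. The groups were close but did not overlap. The log2 fold change of -0.24 (SE 0.0772) had a limma adjusted p of 0.0536 as deposited and 0.0211 with median-of-ratios scaling. Slit1, the mainly neural Slit, averaged 4.31 ± 0.264 RPKM in OIR and 4.09 ± 0.404 RPKM in Control, with an interval from -0.13 to 0.25. Slit3 was too low to test, at 0.251 to 0.484 RPKM in OIR and 0.135 to 1.07 RPKM in Control. Its highest value was in Control 3, the library richest in lens reads.

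Among the Robo receptors, the endothelial Robo4 rose, and the neural receptors did not pass. Robo4, which in the mouse stabilises vessels and binds Unc5b, was at 2.24, 1.57 and 2.64 RPKM in OIR 1 to 3, against 0.637, 0.608 and 0.807 RPKM in Control 1 to 3. Between 204 and 356 reads lay behind each OIR value and between 80 and 102 behind each Control value. Every OIR library was above every Control library, with a ratio of 3.14, and the log2 fold change of 0.89 (SE 0.125, limma adjusted p 0.00169) understates it because a pseudocount of 1 was added to low values. With limma-voom on recovered reads it was 1.63. Robo4 entered the test through the OIR libraries alone, since all Controls were under 1 RPKM, and in the fit with no filter its adjusted p was 0.0162.

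Robo2, the main Slit receptor of ganglion cells, was at 8.35, 10.2 and 8.86 RPKM in OIR 1 to 3, against 13.1, 10.7 and 9.93 RPKM in Control 1 to 3. OIR 2 lay above Control 3, and the log2 fold change of -0.27 had a limma adjusted p of 0.0968. Robo1 averaged 1.78 ± 0.128 RPKM in OIR and 1.96 ± 0.155 RPKM in Control, with an interval from -0.28 to 0.10. Robo3, a receptor of midline-crossing axons, was too low to test, at 0.0659 to 0.171 RPKM in OIR and 0.160 to 0.244 RPKM in Control. Robo3 and Robo4 are neighbours on chromosome 9, with 0 protein-coding genes between them, and Robo4 rose where Robo3 was not tested. Of the summed Robo level, Robo4 held 11.4% to 19.7% in OIR and 3.95% to 6.35% in Control, and Robo2 held 66.2% to 73.7% in OIR and 78.1% to 81.6% in Control.

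Among the netrin ligands only Ntn4, a netrin of basement membranes that binds laminin, was high enough to test. It was at 4.86, 4.75 and 5.52 RPKM in OIR 1 to 3, against 5.46, 5.32 and 5.09 RPKM in Control 1 to 3. The groups overlapped, with a log2 fold change of -0.06 and an interval from -0.24 to 0.12 (limma adjusted p 0.636). Ntn1, the netrin that guides ganglion cell axons out of the eye at the optic disc, was at 0.202 to 0.250 RPKM in OIR and 0.155 to 0.230 RPKM in Control, with 33 to 53 reads per library. Ntn3 was at 0.424 to 0.728 RPKM in OIR and 0.612 to 0.761 RPKM in Control. Ntn5 had 1, 1 and 3 reads in OIR 1 to 3 and 6, 6 and 2 reads in Control 1 to 3, too few for a ratio.

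Among the 6 netrin receptor genes, Unc5b rose and 5 did not pass. Unc5b, a repulsive netrin receptor found on the tip cells of growing vessels, was at 6.89, 5.10 and 7.35 RPKM in OIR 1 to 3, against 2.85, 3.00 and 2.54 RPKM in Control 1 to 3. The log2 fold change was 0.96 (SE 0.116, limma adjusted p 0.000786), with a ratio of 2.31. On log2(RPKM + 1) it was the largest of the tested guidance genes, while Robo4 was larger with a pseudocount of 0.1 (1.5005 for Robo4 and 1.16 for Unc5b), with limma-voom (1.63 and 1.19) and as a ratio of means. Under the 16 alternatives the log2 fold change ran from 0.87 to 1.19. None of the other Unc5 receptor genes passed. Unc5a averaged 4.19 ± 0.285 RPKM in OIR and 3.61 ± 0.259 RPKM in Control, without overlap and with a limma adjusted p of 0.174. Unc5c averaged 4.43 ± 0.113 RPKM in OIR and 4.18 ± 0.429 RPKM in Control (interval -0.12 to 0.26). Unc5d was at 2.89, 3.51 and 2.86 RPKM in OIR 1 to 3, against 4.62, 4.17 and 3.50 RPKM in Control 1 to 3, so the groups touched at OIR 2 and Control 3. Its log2 fold change of -0.32 had a limma adjusted p of 0.0550 as deposited and 0.0363 with median-of-ratios scaling.

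Dcc, the attractive netrin receptor of axons, averaged 2.72 ± 0.367 RPKM in OIR and 3.18 ± 0.535 RPKM in Control (interval -0.41 to 0.08). Neo1, which encodes neogenin and had the highest level of all 39 genes by mean, averaged 17.2 ± 0.215 RPKM in OIR and 16.1 ± 1.502 RPKM in Control (interval -0.07 to 0.27). Unc5b held 13.7% to 19.0% of the summed netrin receptor level in OIR and 7.83% to 8.49% in Control. The share of Unc5d was 7.39% to 9.47% in OIR and 11.6% to 12.7% in Control. A share can fall because another gene of its class rises. That of Neo1 was 44.4% to 45.7% in OIR and 46.9% to 47.7% in Control, though its mean RPKM was higher in OIR.

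**Figure D3:**
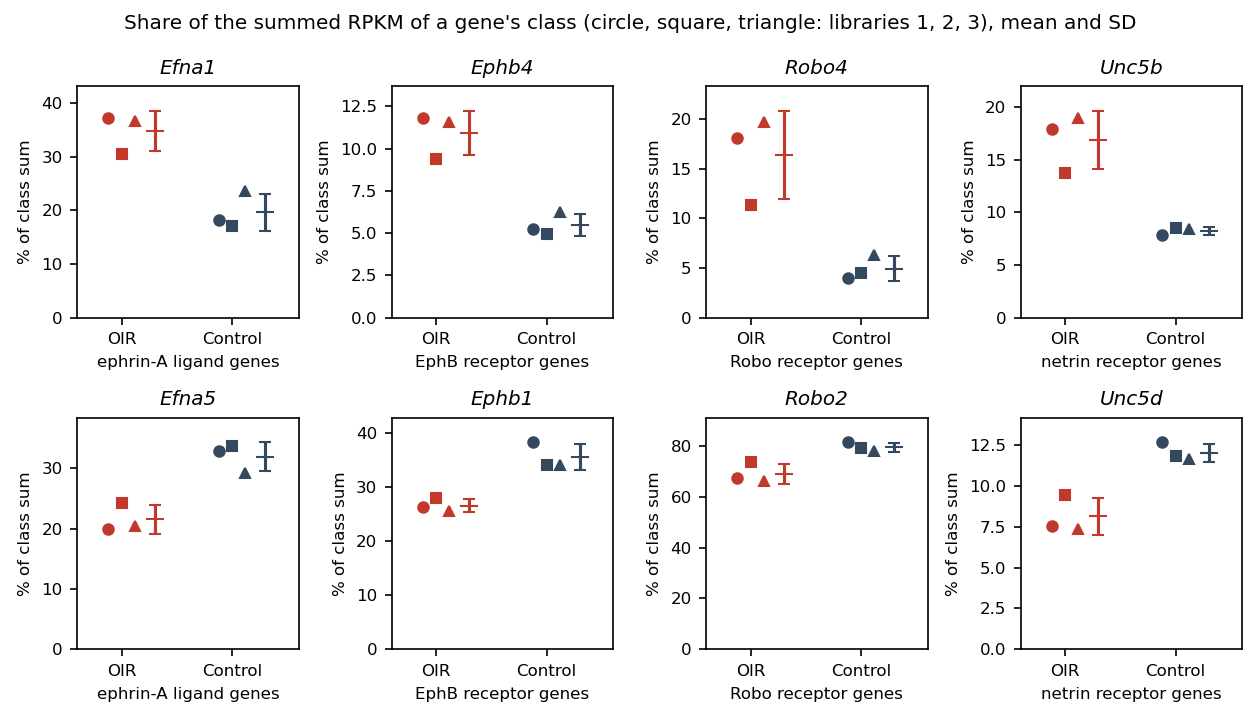
Share of the summed RPKM of a class held by single genes, in % per library, with OIR in red and Control in dark blue and bars for the mean and SD of 3 libraries. Efna1, Ephb4, Robo4 and Unc5b (upper row) held larger shares in every OIR library than in any Control library, and Efna5, Ephb1, Robo2 and Unc5d (lower row) held smaller ones. A share can fall because another gene of its class rises. In RPKM as deposited, Robo2 and Unc5d overlapped between the groups and did not pass. With lens reads removed from the library totals, the limma adjusted p was 0.0635 for Robo2 and 0.0373 for Unc5d.

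The 8 genes under the filter, Efna4, Epha1, Epha6, Slit3, Robo3, Ntn1, Ntn3 and Ntn5, gave no call in the fit with no filter, with limma adjusted p from 0.118 for Epha6 to 0.917 for Epha1. Epha6, an EphA receptor of the temporal retina in the mouse, was at 0.196, 0.253 and 0.170 RPKM in OIR 1 to 3, against 0.377, 0.327 and 0.262 RPKM in Control 1 to 3. The groups did not overlap, and limma-voom on 95 to 206 recovered reads per library gave a log2 fold change of -0.65 with an adjusted p of 0.0565. Epha1, an epithelial EphA receptor, had 2 to 14 reads per library. Over all 39 genes, in RPKM as deposited, the groups did not overlap in 5 with higher and 7 with lower OIR values, 12.8% and 17.9%. Of the 17953 genes above 0, 20.5% and 12.2% did so.

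Markers of endothelial cells were higher in OIR beside the 4 guidance genes that rose. The 12 endothelial markers summed to 127.1 to 139.0 RPKM in OIR and 69.4 to 74.2 RPKM in Control, 11 of the 12 were higher and 0 lower, and none was at 0 in every library. The ratio of the group means had a median of 2.32 over the 12 markers, with 3.10 for Cdh5, the gene of VE-cadherin, and 0.940 for Tek. Pericyte markers, 7 genes, summed to 52.3 to 66.9 RPKM in OIR and 26.0 to 28.6 RPKM in Control, with 5 of 5 tested higher. In whole retina, more cells of a type and more RNA per cell cannot be told apart, and the part of vessel cell number in these results was not tested.

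The 4 genes were also set against the summed endothelial markers of the same library, as were Efnb2, Ntn4 and Epha2, which were not called. Efna1 stood at 3.39 to 4.21 RPKM per 100 RPKM of endothelial markers in OIR and at 2.88 to 4.34 in Control, and Ephb4 at 1.78 to 2.05 in OIR and 1.56 to 1.99 in Control, so both overlapped. Unc5b stood at 4.01 to 5.74 in OIR and 3.65 to 4.04 in Control, with OIR 2 inside the Control range. Robo4 stood at 1.24 to 2.06 in OIR and 0.819 to 1.16 in Control, without overlap. Efnb2 and Ntn4 were lower per marker sum in OIR, without overlap. Efnb2 stood at 2.19 to 2.66 in OIR and 4.87 to 5.24 in Control, and Ntn4 at 3.50 to 4.31 in OIR and 7.17 to 7.46 in Control. Epha2 overlapped, at 1.49 to 2.86 in OIR and 1.21 to 2.88 in Control. The marker sum itself had a ratio of 1.82, under the median marker ratio of 2.32, with Kdr, its largest part, at 1.29. The ratio of mean RPKM of Robo4, 3.14, was close to the largest of the 12 markers, 3.097 for Cd34 and 3.095 for Cdh5. Whether Robo4 rose beyond the endothelial markers was not tested. These ratios rest on 3 libraries a group and were not tested.

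Markers of inner retinal neurons were lower in OIR beside the guidance genes that fell. The 10 ganglion cell markers summed to 559.1, 840.2 and 620.9 RPKM in OIR 1 to 3, against 978.2, 883.5 and 954.1 RPKM in Control 1 to 3, with 4 of 10 lower and 0 higher. The 8 amacrine cell markers summed to 142.5, 185.5 and 147.1 RPKM in OIR 1 to 3, against 240.5, 238.1 and 204.5 RPKM in Control 1 to 3, with 7 of 8 lower and 0 higher. None of the markers in either list was at 0 in every library. Per 100 RPKM of ganglion cell markers, Efna5, Epha3 and Ephb1 overlapped between OIR and Control, at 0.801 to 1.04 for Ephb1 in OIR and 0.795 to 1.01 in Control, for example. Per 100 RPKM of amacrine markers, Epha3 and Ephb1 overlapped as well, and Efna5 stood at 1.85 to 2.05 in OIR and 1.77 to 1.83 in Control. Within OIR, the ganglion marker sum itself ran from 559.1 to 840.2 RPKM and the amacrine sum from 142.5 to 185.5 RPKM. With such spread within a group, overlap of these quotients does not show that the genes followed the markers. The part of neuron number in the lower levels was not tested.

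Among the OIR libraries, OIR 2 was the least changed. For all 7 called guidance genes, OIR 2 was the library nearest the Control mean, as it was for 83.2% of all 2282 genes called. OIR 2 also had the smallest departure of the ganglion and amacrine marker sums. Among all 31 tested guidance genes, OIR 2 was nearest for 18.

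**Figure D4:**
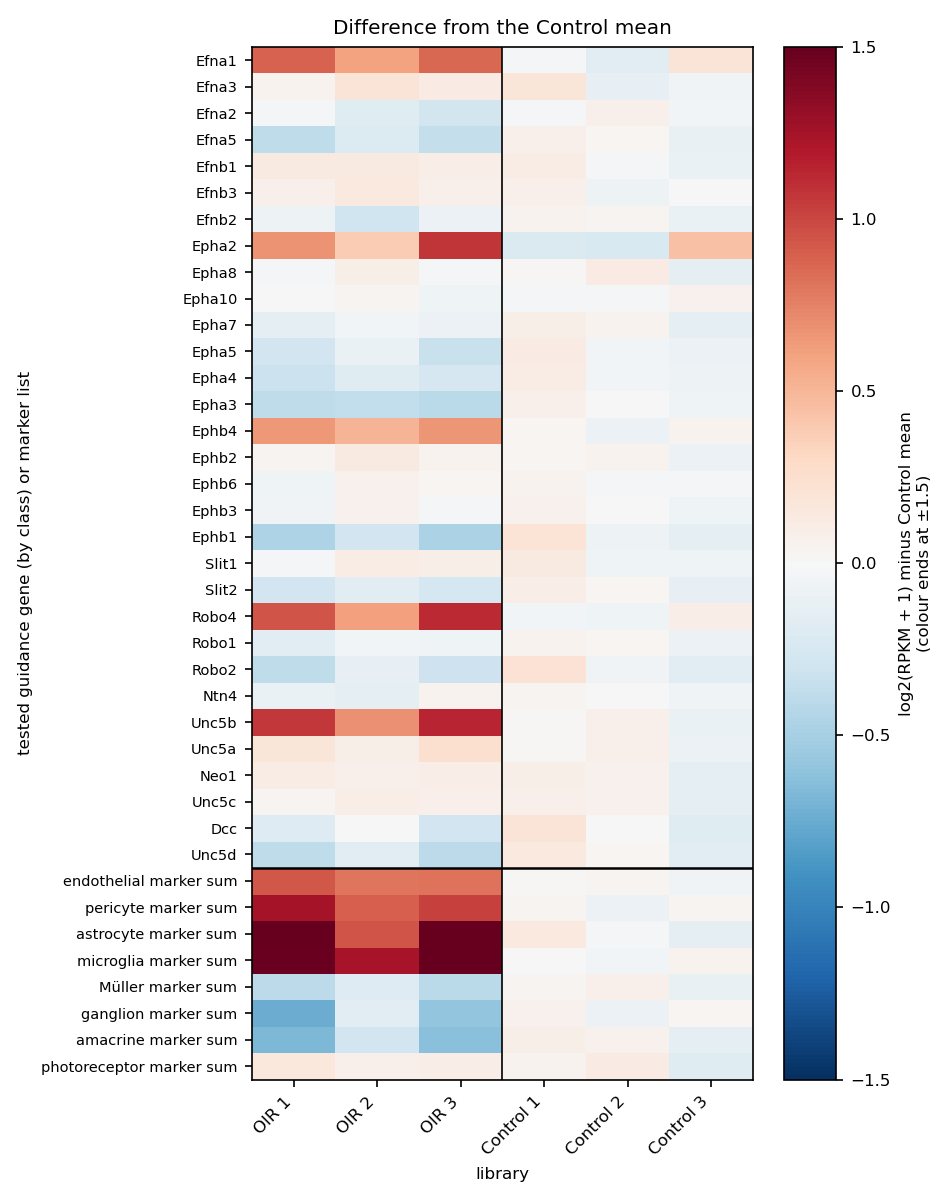
Difference of log2(RPKM + 1) from the Control mean, per library, for the 31 tested guidance genes (above the line, by class) and for the summed RPKM of 8 marker lists (below it). OIR libraries are the left 3 columns; Unc5b, Robo4, Efna1, Ephb4 and the endothelial sum are red there, Ephb1, Epha3 and Efna5 are blue, and OIR 2 is paler than OIR 1 and OIR 3 for Unc5b, Robo4 and the ganglion sum.

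Other genes of the 3 pathways, a list of 53 that hold receptor partners and signalling proteins, gave calls in both directions. Of 51 tested, 3 were higher, 5.88%, against 11.6% of all genes tested, and 6 were lower, 11.8%, against 7.22%. The median log2 fold change of the list was -0.06. Downstream of Eph receptors, the chimaerin genes Chn1 and Chn2, whose products switch off Rac, were lower. Chn1 averaged 35.3 ± 4.16 RPKM in OIR and 50.7 ± 3.90 RPKM in Control (limma adjusted p 0.00486). Chn2 averaged 2.101 ± 0.115 RPKM in OIR and 2.81 ± 0.123 RPKM in Control (limma adjusted p 0.0283).

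The Rac activators Vav2 and Vav3, which bind active Eph receptors, moved apart. Vav2 averaged 3.84 ± 0.328 RPKM in OIR and 2.85 ± 0.0848 RPKM in Control (limma adjusted p 0.0213). Vav3 averaged 2.11 ± 0.243 RPKM in OIR and 3.34 ± 0.0868 RPKM in Control (limma adjusted p 0.00539). Ngef, the gene of ephexin-1, an exchange factor that acts at EphA receptors, fell to 3.96 ± 0.554 RPKM in OIR, against 5.80 ± 1.122 RPKM in Control (limma adjusted p 0.0305).

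Among Slit and Robo partners, Sdc4, a heparan sulfate proteoglycan of the cell surface, averaged 32.4 ± 3.999 RPKM in OIR and 23.7 ± 0.970 RPKM in Control and was higher (limma adjusted p 0.00917). Nell1, a secreted relative of the Robo3 ligand Nell2, averaged 5.54 ± 0.773 RPKM in OIR and 7.96 ± 0.256 RPKM in Control and was lower (limma adjusted p 0.00911). Among netrin receptor partners, Rgma, a ligand of neogenin, was higher at 6.47 ± 1.05 RPKM in OIR and 4.60 ± 0.353 RPKM in Control (limma adjusted p 0.0250). Flrt2, a ligand of Unc5 receptors, was lower at 2.60 ± 0.283 RPKM in OIR and 3.41 ± 0.271 RPKM in Control (limma adjusted p 0.0454). The calls of Chn1, Vav3, Sdc4 and Nell1 held under all 16 alternatives. Those of Vav2, Chn2, Ngef, Rgma and Flrt2 ended when single libraries were left out: for Vav2 and Chn2 without OIR 1, OIR 3, Control 1 or Control 2, for Ngef and Rgma without OIR 1, OIR 3, Control 1 or Control 3, and for Flrt2 without any one of OIR 1, OIR 3 and the 3 Controls, at adjusted p from 0.0542 to 0.173. Calls also ended with no filter for Ngef (limma adjusted p 0.0778), Rgma (0.0659) and Flrt2 (0.0726). The call of Ngef ended with lens reads removed from the total (0.0501), and that of Flrt2 with the filter of 0.1 RPKM (0.0528) and with the replicate number as a block (0.0768).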

How the data were processed

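RNA of whole mouse retina at postnatal day 17 was sequenced in 3 OIR and 3 Control libraries, grouped by their titles. The authors deposited RPKM, in which reads are scaled by gene length and library size, with 1 value for each gene symbol in each library. Per the submitters' processing notes, the tools were TopHat2 2.0.12 and Bowtie2 2.0.6. Not given in the sources used here were the counting program, strand, genome build and annotation, and the extraction text in the labels describes another species, so the library type is uncertain and reads shared by overlapping genes could not be told apart. 

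Whole reads were recovered from the values within 0.02 of a read for 17952 of 17953 genes above 0, with library sizes set by GENCODE M21 transcript lengths of 130 genes. Genes with at least 1 RPKM in at least 3 libraries were tested with limma 3.58.1 in R 4.3.3 (trend and robust options, two-sided, Benjamini-Hochberg over all 12112 genes, threshold 0.05) on log2(RPKM + 1), OIR against Control, with 4 residual degrees of freedom. Fold changes on this scale understate those of low genes. Ratios are of group means. All 39 guidance genes are reported. Partner genes are named when past the threshold, up to 4 a direction and pathway by adjusted p. The members, gene lists and markers were chosen with earlier results of these data known. Alternatives changed the scaling (upper-quartile or median-of-ratios), the filter (none, or 0.1 RPKM), the pseudocount (0.1), the libraries (each left out in turn, then both lens-rich ones) or the model (limma-voom on recovered reads, a replicate block, a minimum log2 fold change of 1). Removing lens reads from the library totals, and limma-voom with the filter of 0.1 RPKM, were added after seeing the data. The fit was tested on simulated data in which no library was lens-rich, so that test does not bear on the stability of the calls here. Promoter windows are from RefSeq (GRCm38.p6). A marker of photoreceptors is not reported here and was left out of its list.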

Additional observations from a re-analysis of the deposited data

How the results depend on the processing

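The 4 higher calls, Efna1, Ephb4, Robo4 and Unc5b, held under all 16 alternative fits, with 4 to 5 guidance genes higher when single libraries were left out and 5 with Epha2 added without both lens-rich libraries or with the replicate block. The 3 lower calls became 6 with median-of-ratios scaling, 6 with upper-quartile scaling, 6 with lens reads removed, 7 with limma-voom under either filter, 9 without both lens-rich libraries, 1 with no filter and 0 to 8 when single libraries were left out. A minimum log2 fold change of 1 in size left 0 guidance genes and 0 partner genes in either direction. Partner genes numbered 5 higher and 19 lower without both lens-rich libraries, and 1 to 4 higher and 3 to 9 lower without single libraries. Median-of-ratios scaling gave a median log2 fold change over all genes of -0.0085, against 0.03 as deposited; the cause of the other changes was not tested. Guidance genes tested numbered 31, or 37 with the filter of 0.1 RPKM and 39 with no filter. Over all 12112 genes tested, 1407 were higher and 875 lower. Single libraries left out gave 513 to 1754 higher and 212 to 1293 lower. Lower genes numbered 1313 of 12117 with median-of-ratios scaling, 1355 of 12116 with upper-quartile scaling and 529 of 17953 with no filter. They numbered 1255 of 12135 with lens reads removed, 984 of 12112 with limma-voom and 1054 of 15036 with limma-voom and the filter of 0.1 RPKM. Leaving out both lens-rich libraries gave 2094 higher and 1943 lower of 12112. A log2 fold change of at least 1 left 115 higher and 4 lower.

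The sign turned only in genes close to 0 that did not pass in either fit. Epha8, at 0.02, was -0.0183 with median-of-ratios scaling, -0.0220 with upper-quartile scaling, -0.00889 with lens reads removed and -0.0854 without both lens-rich libraries, and ran from -0.0527 to 0.0778 without single libraries. Ephb6, at 0.01, was -0.0240, -0.0273, -0.0156 and -0.0392 in the same order of fits and -0.0223 to 0.0466 without single libraries. Without both lens-rich libraries Epha10 was 0.0021, Ephb2 -0.00092 and Unc5c -0.0130. Without single libraries Epha10 ran from -0.0321 to 0.0268, Ephb3 from -0.0332 to 0.0320 and Unc5c from -0.00066 to 0.11.

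Whether the replicate numbers pair the libraries is not known. Deviations from the group means correlated at 0.222, -0.440 and -0.414 for libraries 1, 2 and 3 across genes. The largest correlation, 0.493, was that of OIR 2 with Control 3, the lens-rich libraries. Deviations within a group sum to 0, so these correlations depend on each other and cannot settle pairing. With the replicate block 5 guidance genes were higher and 3 lower, the addition being Epha2, and 3 partner genes were higher and 5 lower. Depth limits Ntn5 and Epha1, with at most 14 reads in a library.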
